A study of Mus musculus with 4 samples.

Results

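Csf1r, the receptor by which macrophages sense colony-stimulating factor 1, was examined together with Csf2ra, Csf2rb, Csf3r, Flt3 and the ligand gene Csf1. These 6 genes were taken by symbol from the 31053 genes of the count tables. The cells came from the hearts of CSF1R-EGFP+ mice aged 12 to 16 weeks, were sorted as EGFP+ and Ly6G-, and were profiled singly by RNA sequencing. At baseline, 3 hearts of mice without surgery had been pooled into 1 library. For the infarct group, each of 3 libraries held the cells of a single heart on day 7 of coronary occlusion. Both groups carried the reporter transgene, in which the Csf1r promoter drives EGFP. EGFP itself is not among the genes counted, so the level of the reporter transcript was not analysed here. The sort therefore selected cells on activity of a Csf1r promoter, and Ly6G, a neutrophil surface antigen, was used to leave neutrophils out.

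CSF1R is a receptor tyrosine kinase that binds CSF1 and interleukin-34 and maintains the survival and growth of macrophages. CSF2RA binds granulocyte-macrophage colony-stimulating factor and signals through CSF2RB, a beta chain that also serves the receptors for interleukin-3 and interleukin-5. CSF3R is the receptor for granulocyte colony-stimulating factor and is best known from neutrophils and monocytes, whereas FLT3, a kinase related to CSF1R, is needed for the development of dendritic cells. CSF1 is made by many stromal cells and by some leukocytes.

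In mouse genome build GRCm38, Csf1r lies on chromosome 18 (61100598 to 61132149, plus strand), Csf2ra on chromosome 19 (61223957 to 61228429, minus strand) and Csf3r on chromosome 4 (126024550 to 126044440, plus strand). Flt3 lies on chromosome 5 (147330741 to 147400489, minus strand) and Csf1 on chromosome 3 (107741048 to 107760469, minus strand). Csf2rb lies on chromosome 15 (78325752 to 78353847, plus strand), with 20030 bases between it and Csf2rb2, a near-identical paralog whose product serves the interleukin-3 receptor. Reads from the 2 paralogs could have been split or lost, so counts of both are uncertain.

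The files held 10144 to 10804 barcodes per library, of which 10117 to 10782 passed the cell filter, with a median of 6398.5 UMIs (unique molecular identifiers, the count of distinct transcripts) per cell at baseline and 8469.5 to 8556.5 in the infarct libraries. Any 2 libraries shared 26 to 34 barcodes. Cells were placed in classes by the number of marker genes they held, and no member was a marker. Macrophages, called by complement C1q and 4 or more of 7 markers, were 62.1% of baseline cells and 71.2% to 80.3% of infarct cells. Leading genes of the gated classes included their own markers, such as S100a8 and S100a9 in granulocytes and Cd209a in type 2 dendritic cells. Granulocyte-gated cells were shallow, with medians of 2085 to 2932 UMIs. Cells meeting several gates (mixed) and cells meeting none (unassigned) were kept out of the named classes.

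PU.1, a factor of myeloid cells, is known to bind promoters of colony-stimulating factor receptor genes, so the 250 bases before the start site of each member in RefSeq (GRCm38.p6) were searched for GAGGAA, the core bound by PU.1, on both strands (GAGGAA or TTCCTC). Windows were at hand for 4 members, Csf2ra, Csf3r, Flt3 and Csf1, and the motif was in those of Csf2ra (2 matches) and Csf3r (1 match). It occurs in 23.3% of 32851 promoter windows of that length, so a match is common, and it is a match of letters and not a site of binding. The 30 bases that hold the matches are shown 5′ to 3′ on the strand of the gene, with the motif in capitals. The Csf2ra stretch is chr19:61228419-61228448 (minus strand) and ends at the base before the start site, and the Csf3r stretch is chr4:126024561-126024590 (plus strand), from 98 to 69 bases before it.
Csf2ra: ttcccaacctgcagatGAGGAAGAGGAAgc
Csf3r: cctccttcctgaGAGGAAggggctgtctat
The 2 matches of Csf2ra lie side by side. In the GENCODE annotation both genes start within or before these stretches, at 61228429 for Csf2ra and 126024550 for Csf3r, so part of the first and all of the second lie inside the annotated gene.

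Csf1r was high in macrophages and monocytes and low in dendritic cells. Levels are given as counts per 1000000 UMIs summed over a class (CPM), without mitochondrial genes. In macrophages Csf1r stood at 829, 818 and 836 CPM in infarct replicates 1, 2 and 3, and at 1276 CPM at baseline. Non-classical monocytes, the patrolling monocytes marked by Ace and Treml4, held 653, 769 and 778 CPM in the infarct libraries and 888 CPM at baseline. Classical monocytes held 542, 474 and 486 CPM, with 582 CPM at baseline. The infarct values of these 3 classes did not overlap with one another, and in each class all infarct libraries were below baseline. The log2 ratio of the infarct mean over baseline was -0.62 in macrophages, -0.28 in non-classical monocytes and -0.22 in classical monocytes. Among all genes of at least 10 CPM the median ratio in all cells was -0.20. Of these genes 57.3% had all 3 infarct libraries below baseline.

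Type 2 dendritic cells held 136, 145 and 152 CPM of Csf1r in the infarct libraries, and granulocyte-gated cells held 167, 175 and 151 CPM. These ranges overlapped. Migratory dendritic cells, marked by Ccr7 and Fscn1, were lowest at 15.6, 22.6 and 20.3 CPM, from only 13 UMIs in 109 cells. The order of Csf1r levels in the infarct was thus macrophage, non-classical monocyte, classical monocyte, granulocyte or type 2 dendritic cell, and migratory dendritic cell.

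**Figure D1:**
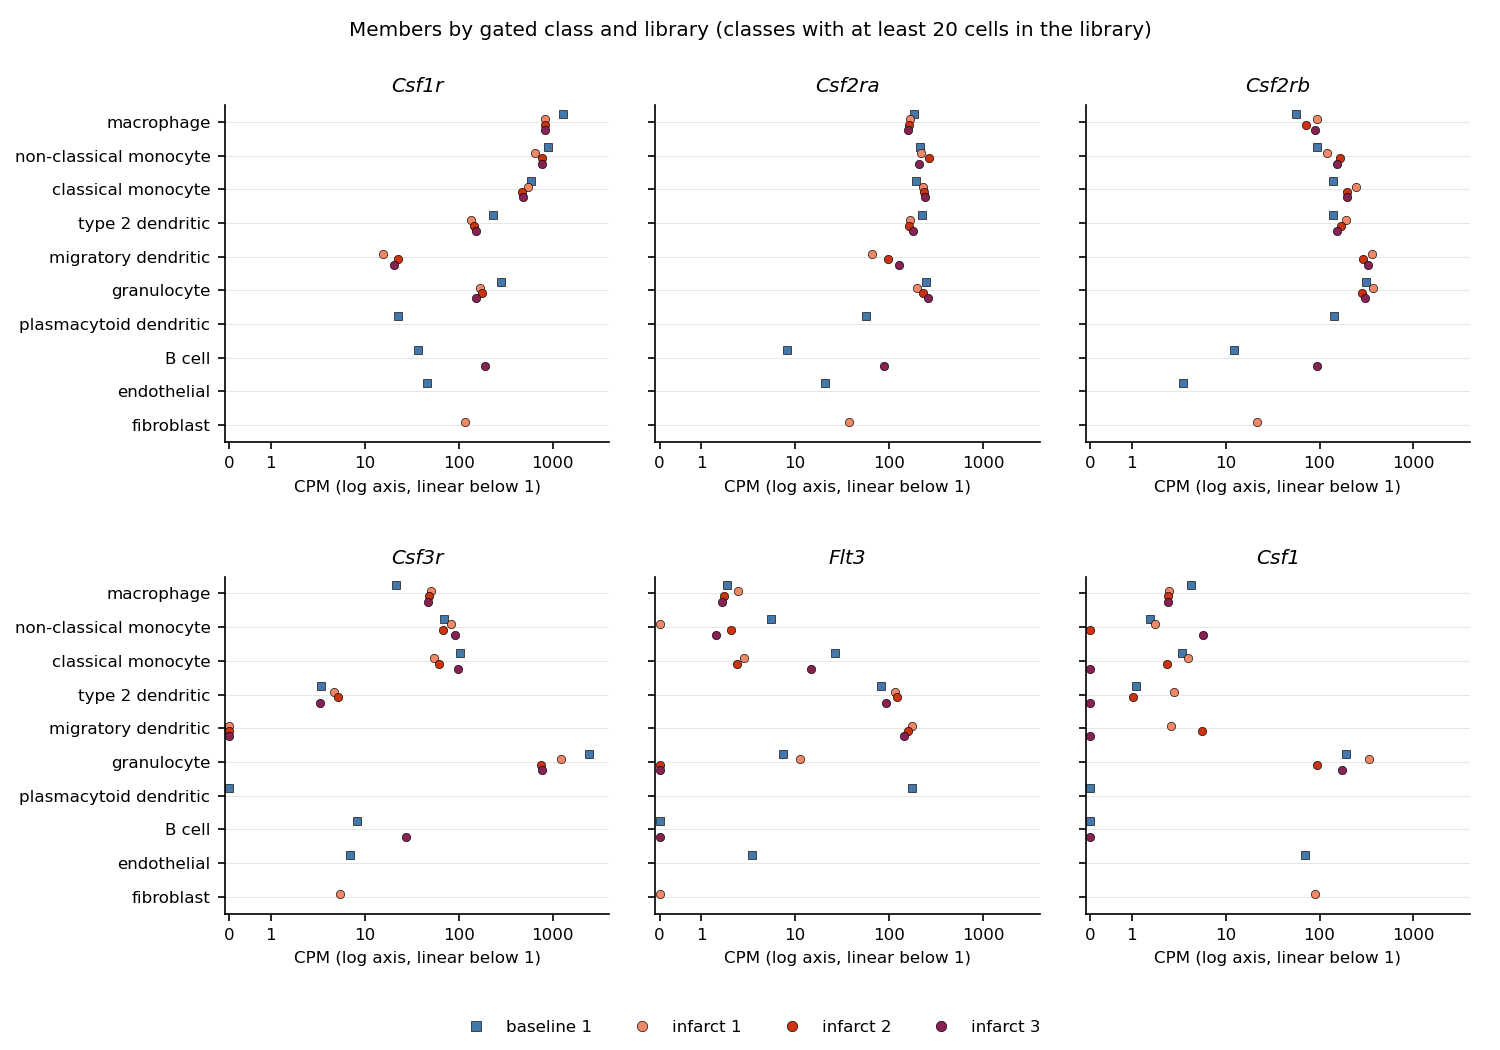
CPM of each member (x axis, logarithmic and linear below 1) in each gated class (y axis), 1 point per library with at least 20 cells of the class. Csf1r points of the 4 libraries lie between 474 and 1276 CPM in macrophages and monocytes and under 23 CPM in migratory dendritic cells, Csf3r reaches 2438 CPM in granulocytes, and Flt3 exceeds 81 CPM in every dendritic class drawn.

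To ask in which cells each member was enriched, sums over a class were compared with sums over all other cells of the same 3 infarct hearts, using edgeR's quasi-likelihood test with the library as a block and a Benjamini-Hochberg adjusted p under 0.01. The other cells included mixed and unassigned cells, which gave 8.39% and 6.74% of infarct UMIs. Macrophages gave 76.6%, so they made up most of the cells that every other class was compared with. Calls of different classes are therefore not independent. Over 6 classes and 36 pairs of member and class, 12 were higher, 12 lower and the rest did not pass. In macrophages 1 of 6 members was higher and 4 were lower, where 28.1% of 13415 genes were called (13% higher, 15.1% lower). In classical monocytes 3 were higher and 1 lower (28.7% of genes called, 13.7% higher and 15% lower). In type 2 dendritic cells 2 were higher and 2 lower (34.8% of genes called, 16.6% higher and 18.2% lower). In migratory dendritic cells 2 were higher and 3 lower (19.7% of genes called, 8.46% higher and 11.2% lower). In granulocytes 3 were higher and 1 lower (11.4% of genes called, 3.93% higher and 7.47% lower). In non-classical monocytes 1 was higher and 1 lower (17.5% of genes called, 8.12% higher and 9.34% lower). The median log2 fold of all genes was -0.60 in granulocytes and -0.46 in migratory dendritic cells, and between -0.14 and 0.01 in the other 4 classes, so folds in the first 2 classes are read against a shifted centre. Each infarct library is 1 heart, so each test rests on 3 pairs of sums. The dispersion behind a p-value was moderated over all genes tested. The p-values therefore reflect counting error and a spread shared over genes, and not only how 1 gene varied among 3 hearts.

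Csf1r rose in macrophages by 0.75 ± 0.03 (log2 fold over other cells ± SE, higher in 3 of 3 libraries, edgeR adjusted p = 6.25e-05). It was lower in classical monocytes by -0.56 ± 0.08 (adjusted p = 0.000169, edgeR), in type 2 dendritic cells by -2.40 ± 0.06 (adjusted p = 2.15e-12, edgeR), in granulocytes by -2.56 ± 0.21 (adjusted p = 3.76e-31, edgeR) and in migratory dendritic cells by -5.32 ± 0.30 (adjusted p = 3.18e-68, edgeR). Non-classical monocytes did not pass the test (-0.13 ± 0.11, adjusted p = 0.431, edgeR). These 5 calls held under all alternatives run.

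**Figure D2:**
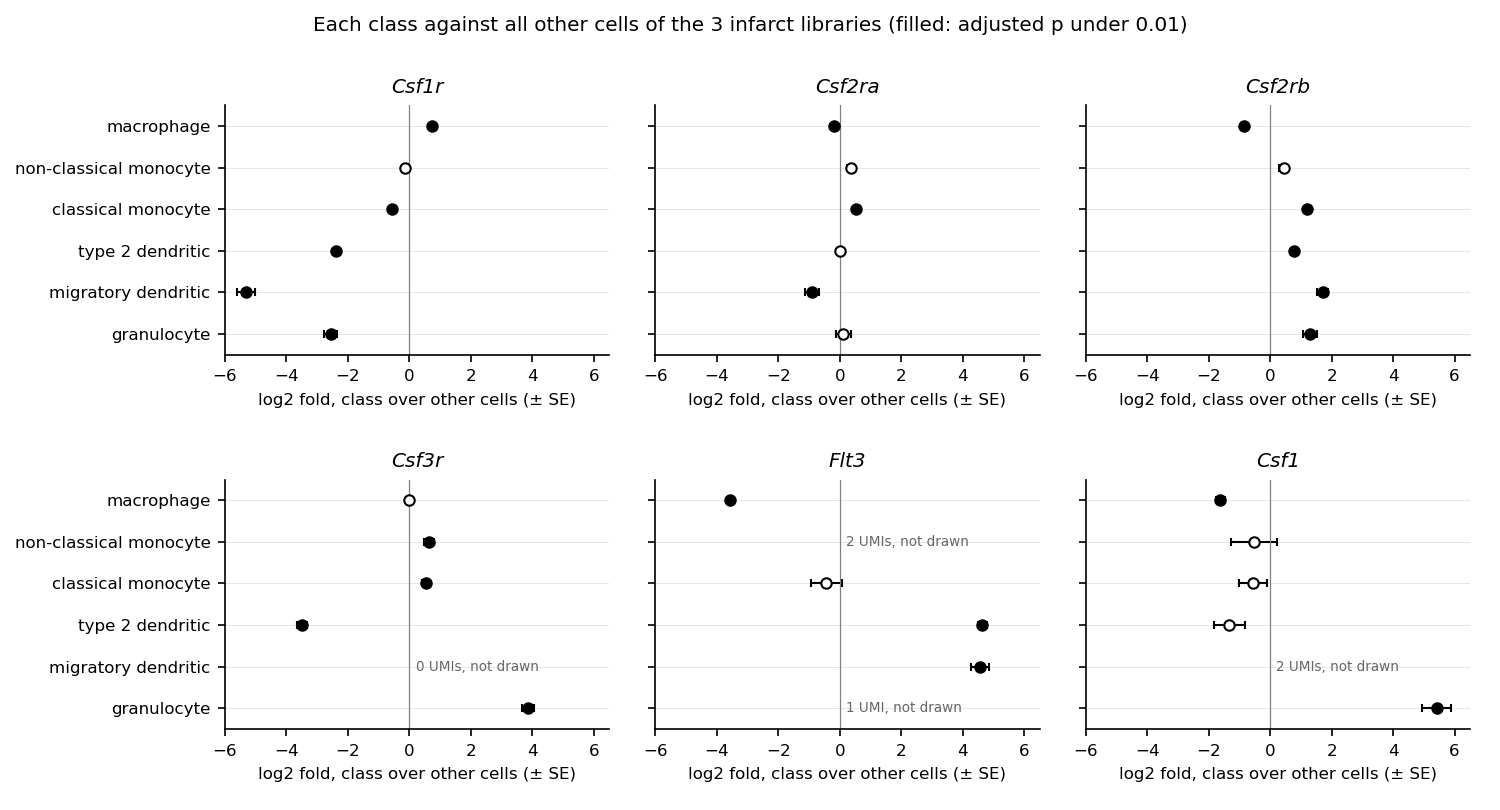
Log2 fold of each member in a class over all other cells of the infarct libraries (x axis, points with bars of 1 SE), filled where the edgeR adjusted p was under 0.01. Csf1r is above 0 only in macrophages (0.75), Flt3 reaches 4.64 in type 2 dendritic cells and Csf1 5.41 in granulocytes, and pairs with 3 or fewer UMIs in the class are not drawn.

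Since cells were sorted on a Csf1r reporter, the share of cells with a Csf1r transcript was counted after each cell had been thinned to 2000 UMIs. At that depth 77.5% ± 0.80 (SD, n = 3) of infarct macrophages and 88.8% of baseline macrophages (exact 95% interval 87.98 to 89.6%) held a Csf1r UMI. Without thinning these shares were 95.4% ± 0.90 and 96.3%. Of the macrophages, 22449 of 24124 in the infarct and 5838 of 6362 at baseline were deep enough to be thinned. The shares were 78.0% ± 1.4 and 79.6% in non-classical monocytes, and 59.0% ± 2.9 and 64.2% in classical monocytes. Only 5.80% of 69 baseline B cells (interval 1.60 to 14.2%) and 3.33% of 60 baseline endothelial cells (interval 0.406 to 11.5%) held one. These are cell types that should lack the gene, but these cells too had come through the EGFP+ sort, so they are not a clean negative. Before thinning their median depths were 3178 and 3606.5 UMIs, against 6749.5 in baseline macrophages. In infarct libraries 23.3% of 43 B-gated cells held a Csf1r UMI. There the summed level of the 7 macrophage markers was 6136 to 31079 CPM, against 1250 CPM in baseline B cells, and their part in the Csf1r value was not tested.

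Without thinning, 10.3% of baseline cells and 9.43%, 6.12% and 8.77% of infarct cells had no Csf1r UMI at all. Most infarct macrophages did hold the transcript, with a median of 6 Csf1r UMIs per cell in each infarct library and 8 at baseline, although infarct cells were deeper. Granulocyte-gated cells had no Csf1r UMI in 50.8% of baseline cells and 65.3% to 75.7% of infarct cells, at their lower depth. A cell that passed an EGFP gate thus did not always show the endogenous transcript, and the depth of a cell and its Csf1r level both bear on that share.

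Csf1r UMIs came mainly from macrophages, which gave 83.9% ± 3.9 (SD, n = 3) of them in the infarct libraries and 76.4% at baseline. Macrophages gave 76.6% and 62.5% of all UMIs. Non-classical monocytes, 10.2% of baseline cells and 0.991% to 1.26% of infarct cells, gave 6.42% of the baseline Csf1r UMIs and 0.639% ± 0.16 of the infarct ones.

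Csf2ra and Csf2rb, the 2 chains of the GM-CSF receptor, were both higher in classical monocytes but parted in other classes. Csf2ra varied little. In the infarct libraries it stood at 229, 233 and 239 CPM in classical monocytes, at 219, 269 and 208 CPM in non-classical monocytes and at 200, 229 and 261 CPM in granulocytes, and these 3 ranges overlapped. Type 2 dendritic cells (165, 163 and 180 CPM) and macrophages (166, 161 and 160 CPM) also overlapped. Migratory dendritic cells were lowest, at 65.0, 96.1 and 129 CPM.

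Csf2ra was higher in classical monocytes by 0.54 ± 0.08 (edgeR adjusted p = 0.000229). It was lower in migratory dendritic cells by -0.90 ± 0.23 (edgeR adjusted p = 0.000761), where leaving out infarct replicate 1 gave -0.59 with an adjusted p of 0.154. The macrophage value, -0.17 ± 0.03, lay at the threshold (edgeR adjusted p = 0.00950). It was no longer called with any 1 library left out (adjusted p = 0.0404 to 0.0664) or without the library block (adjusted p = 0.0623).

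Among the 6 tested classes, mean Csf2rb was highest in migratory dendritic cells, where Csf1r was lowest, and lowest in macrophages, where Csf1r was highest. Over 28 sums of 10 classes the 2 genes showed no likeness (Pearson's r = -0.03). Migratory dendritic cells held 361, 294 and 332 CPM in the infarct libraries and granulocytes held 367, 283 and 302 CPM. Classical monocytes followed with 246, 196 and 198 CPM, then type 2 dendritic cells with 190, 168 and 155 CPM and non-classical monocytes with 120, 166 and 155 CPM. Macrophages were lowest at 94.3, 72.5 and 88.5 CPM, below every library of the other 5 tested classes.

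Csf2rb rose by 1.18 ± 0.08 in classical monocytes (edgeR adjusted p = 1.12e-06), by 0.78 ± 0.08 in type 2 dendritic cells (2.09e-06), by 1.71 ± 0.19 in migratory dendritic cells (4.90e-18) and by 1.29 ± 0.22 in granulocytes (1.50e-07). It was lower in macrophages by -0.84 ± 0.06 (adjusted p = 0.000198, edgeR). All 5 calls held under every alternative run. Csf2rb2 was also higher in classical monocytes (0.52), type 2 dendritic cells (0.69) and migratory dendritic cells (1.93) and lower in macrophages (-0.49). Since reads of these near-identical paralogs could have been split between them, Csf2rb2 is not an independent check on Csf2rb. Il3ra, the chain that binds interleukin-3, was lower in non-classical monocytes (-1.21) and type 2 dendritic cells (-0.62).

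Within single macrophages the 2 GM-CSF receptor chains were found together about as often as their separate shares would give. At 2000 UMIs per cell, both were seen in 279, 258 and 267 infarct macrophages of replicates 1, 2 and 3, where the product of the shares gives 281, 266 and 286. At baseline it was 168 cells, where the product gives 167. At this depth only 25.7% ± 0.53 of infarct macrophages held a Csf2ra UMI and 14.5% ± 1.4 a Csf2rb UMI, so pairing within a cell is barely visible.

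Csf3r marked granulocytes, and was also found in macrophages and monocytes. Granulocyte-gated cells held 1224, 742 and 763 CPM in the infarct libraries and 2438 CPM at baseline (interval 2181 to 2716), so all infarct libraries were below baseline. Non-classical monocytes held 82.96, 67.7 and 90.4 CPM, classical monocytes 54.6, 60.9 and 97.9 CPM, and macrophages 50.6, 47.9 and 47.5 CPM. The 2 monocyte ranges overlapped with each other but not with that of macrophages. Type 2 dendritic cells held 3.31 to 5.13 CPM. In migratory dendritic cells there was no Csf3r UMI in any infarct library, and a limit of 3 counts over these libraries makes the level at least 11.7-fold lower than the 49.4 CPM of all other cells.

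Csf3r was higher in granulocytes by 3.86 ± 0.19 (edgeR adjusted p = 1.10e-86) and lower in type 2 dendritic cells by -3.49 ± 0.17 (1.52e-09). At 2000 UMIs, 32 of 32 baseline granulocytes and 72.1% ± 13 of infarct granulocytes held a Csf3r UMI. Smaller rises were called in non-classical monocytes (0.63 ± 0.17, edgeR adjusted p = 0.00137) and classical monocytes (0.54 ± 0.14, edgeR adjusted p = 0.00913). In non-classical monocytes the adjusted p was 0.0121 without infarct replicate 1 and 0.146 without infarct replicate 3. In classical monocytes the fold fell to 0.31 with an adjusted p of 0.0605 without infarct replicate 3, the library at 97.9 CPM, and the adjusted p was 0.0397 without the library block. Macrophages did not pass (-0.01 ± 0.10, adjusted p = 0.922, edgeR).

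Most Csf3r transcripts of the infarct came from macrophages, at a share close to their share of all UMIs. Macrophages gave 75.6% ± 4.3 (SD, n = 3) of the Csf3r UMIs in the infarct libraries and 34.5% at baseline, where they gave 76.6% and 62.5% of all UMIs. Granulocytes gave 2.10% ± 0.75 and 12.4%, and classical monocytes 5.25% ± 1.1 and 19.0%. The 7 granulocyte markers summed to 8.85 to 17.4 CPM in infarct macrophages and 7.98 CPM in baseline macrophages, against 65362 to 97818 CPM in infarct granulocytes. For each 100 UMIs of these markers, macrophages held 273 to 541 Csf3r UMIs in the infarct libraries and granulocytes held 0.759 to 1.47. The part of granulocyte transcripts in the macrophage value was not tested.

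**Figure D3:**
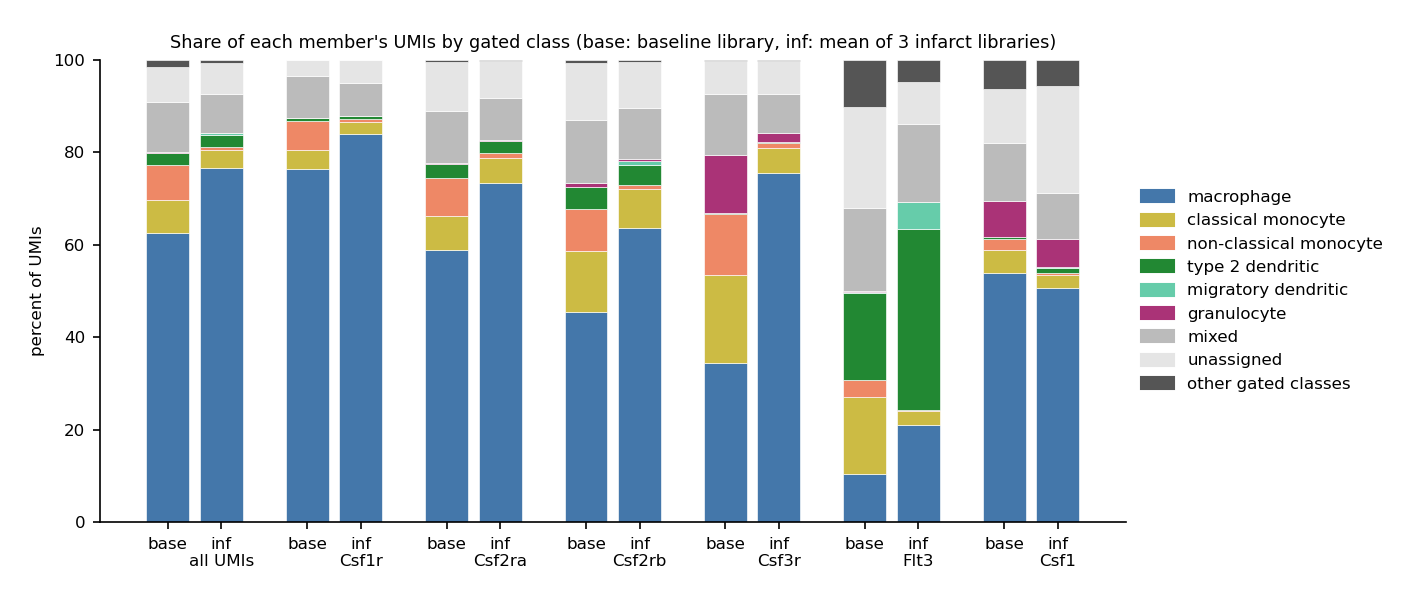
Percent of the UMIs of each member, and of all UMIs, that came from each gated class (stacked bars, baseline library beside the mean of 3 infarct libraries). Macrophages give 83.9% of infarct Csf1r UMIs and 75.6% of infarct Csf3r UMIs but 21.0% of infarct Flt3 UMIs, where type 2 dendritic cells give 39.3%.

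Flt3 was highest in the dendritic classes. Migratory dendritic cells held 177, 158 and 142 CPM in the infarct libraries and type 2 dendritic cells held 115, 121 and 91.6 CPM. Type 1 dendritic cells (18 cells) held 177 CPM over the infarct libraries together (interval 132 to 232) and plasmacytoid dendritic cells (37 cells) held 128 CPM (interval 89.1 to 178). Macrophages held 2.43, 1.74 and 1.65 CPM, and no Flt3 UMI was seen in B-gated or fibroblast-gated cells.

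Flt3 rose by 4.64 ± 0.14 in type 2 dendritic cells (edgeR adjusted p = 1.26e-11) and by 4.56 ± 0.30 in migratory dendritic cells (4.71e-51), and was lower in macrophages by -3.57 ± 0.09 (1.27e-05). Type 2 dendritic cells, which gave 2.61% of infarct UMIs, gave 39.3% ± 5.3 of the Flt3 UMIs. Non-classical monocytes had 2 Flt3 UMIs in 337 infarct cells (1.14 CPM, interval 0.138 to 4.13). That difference was called (edgeR adjusted p = 0.00576) but was lost without infarct replicate 1 (0.157), without infarct replicate 3 (0.0338) and without the library block (0.0337). Kit, another kinase of the family, was also higher in type 2 (5.84) and migratory dendritic cells (4.04).

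Classical monocytes differed between libraries in Flt3. They held 2.83, 2.38 and 14.8 CPM in infarct replicates 1, 2 and 3, and 26.2 CPM at baseline. The class did not pass against other cells (-0.44 ± 0.50, edgeR adjusted p = 0.507), and was lower by -1.63 without infarct replicate 3 (edgeR adjusted p = 0.00117).

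Csf1, the ligand, was scarce in this sort, with 1007 UMIs in 31295 infarct cells. Granulocyte-gated cells held most per UMI, at 334, 94.5 and 172 CPM in the infarct libraries and 193 CPM at baseline. Macrophages held 2.50, 2.45 and 2.46 CPM and lay below all infarct granulocyte values. Fibroblast-gated cells held 90.0 CPM in infarct replicate 1 (50 UMIs in 36 cells) and 65.9 CPM in replicate 2 (5 UMIs in 5 cells), and none of 10 such cells in replicate 3 held a Csf1 UMI, which allows up to 33.6 CPM. In the baseline library 100 endothelial cells held 69.9 CPM (interval 42.7 to 108). Csf1 was higher in granulocytes by 5.41 ± 0.47 (edgeR adjusted p = 4.29e-29, higher in 3 of 3 libraries) and lower in macrophages by -1.62 ± 0.15 (0.000571). Both calls held under every alternative that could be run.

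Macrophages still gave 50.7% ± 8.2 of infarct Csf1 UMIs, and cells in no gate gave 23.0% ± 9.3. The latter, led in the infarct by Ctsk, Mmp9 and Acp5, held 7.43, 11.7 and 20.0 CPM of Csf1, and were not named. They held Csf1r at 572, 507 and 524 CPM. Of the other ligands, Il34, the second ligand of CSF1R, had 19 UMIs in all infarct cells, Csf2 had 2, Csf3 had 17, and neither Il3 nor Il5 had any. Flt3l, the ligand of FLT3, stood at 5.33 to 5.84 CPM in the infarct libraries and 6.29 CPM at baseline.

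Within macrophages, sums over a subset were compared with sums over the other macrophages in the same way. Subsets overlap, since a cell may meet several gates. Of 36 pairs of member and subset, 5 were higher and 5 lower. For resident macrophages (marked by Lyve1 and Cd163) 0 of 6 members were called by edgeR, where 9.5% of genes were called (5.34% higher, 4.17% lower). For acute phase macrophages (marked by Saa3 and Marco) 0 of 6 were called as well, where 21.6% of genes were called (12.3% higher, 9.33% lower). At an unadjusted p under 0.05 there were 1 and 3 members, and the DESeq2 Wald test called 0 and 2.

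Csf1r was lower in cycling macrophages by -0.55 ± 0.06 (edgeR adjusted p = 5.78e-05), at 633, 577 and 591 CPM, below the 769.6 to 798 CPM of interferon response macrophages and the 809 to 845 CPM of MHC class II macrophages. Acute phase macrophages (584 to 798 CPM) overlapped the cycling range. These values are shares of a cell's UMIs, and cycling macrophages were deeper. Their median depth was 14687 to 15362 UMIs, against 8438 to 8571 in all infarct macrophages. Per cell they held a median of 10, 8 and 8 Csf1r UMIs, against 6 in all macrophages of each infarct library. In cycling macrophages 3 of 6 members were lower and 0 higher, where 26.6% of genes were called (15.6% higher, 10.9% lower). Csf3r was lower by -1.32 ± 0.10 (edgeR adjusted p = 4.28e-06) at 22.7, 19.6 and 20.9 CPM. Csf2rb was lower by -0.46 ± 0.10 (edgeR adjusted p = 0.00445), with an adjusted p of 0.0672 without infarct replicate 2 and of 0.0477 without the library block.

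In reparative macrophages, marked by Gpnmb and Spp1, 2 members were lower and 0 higher (19% of genes called, 9.71% higher and 9.25% lower). Csf1r stood at 742, 769 and 774 CPM, a log2 difference of -0.18 ± 0.04 (edgeR adjusted p = 0.00861). That call was lost without infarct replicate 1 (0.0831), without infarct replicate 3 (0.0867) and without the library block (0.114). Per cell, reparative macrophages held a median of 7, 7 and 8 Csf1r UMIs, against 6 in all macrophages of each infarct library. Their median depth was 9886 to 10265 UMIs. Flt3 was lower by -1.59 ± 0.18 (edgeR adjusted p = 0.000178), from 97 UMIs. At 2000 UMIs per cell it was -0.90 with an adjusted p of 0.0661.

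MHC class II macrophages had 3 of 6 members higher and 0 lower, where 17.8% of genes were called (8.71% higher, 9.06% lower). Csf2ra rose by 0.31 ± 0.03 (edgeR adjusted p = 9.37e-05, and 0.0142 without the library block), at 175, 174 and 173 CPM. Csf2rb rose by 0.20 ± 0.04 (edgeR adjusted p = 0.00289), with 0.0201 without infarct replicate 1 and 0.340 without the library block. Flt3 rose by 2.48 ± 0.18 (edgeR adjusted p = 1.91e-05), at 3.46, 2.73 and 2.65 CPM. The 7 type 2 dendritic markers summed to 127 to 165 CPM in these macrophages, and per 100 marker UMIs there were 1.82 to 2.14 Flt3 UMIs. Type 2 dendritic cells held 1.81 to 2.17 Flt3 UMIs per 100 of the same markers. Their part in the Flt3 value was not tested.

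Interferon response macrophages, marked by Ifit1 and Rsad2, had 2 of 6 members higher and 0 lower, where 8.96% of genes were called (6.68% higher, 2.28% lower). Csf1 rose by 2.81 ± 0.16 (edgeR adjusted p = 2.37e-09, higher in 3 of 3 libraries), at 11.01, 9.15 and 11.7 CPM, and the call held under all alternatives. The 7 granulocyte markers, of the class with most Csf1, summed to 4.55 to 10.8 CPM in these cells. Csf3r was higher by 0.25 ± 0.06 (edgeR adjusted p = 0.00782), a call lost with any 1 infarct library left out (adjusted p = 0.0147 to 0.0704) and without the library block (0.0855). Csf1r did not differ detectably (0.02 ± 0.04, edgeR adjusted p = 0.824).

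**Figure D4:**
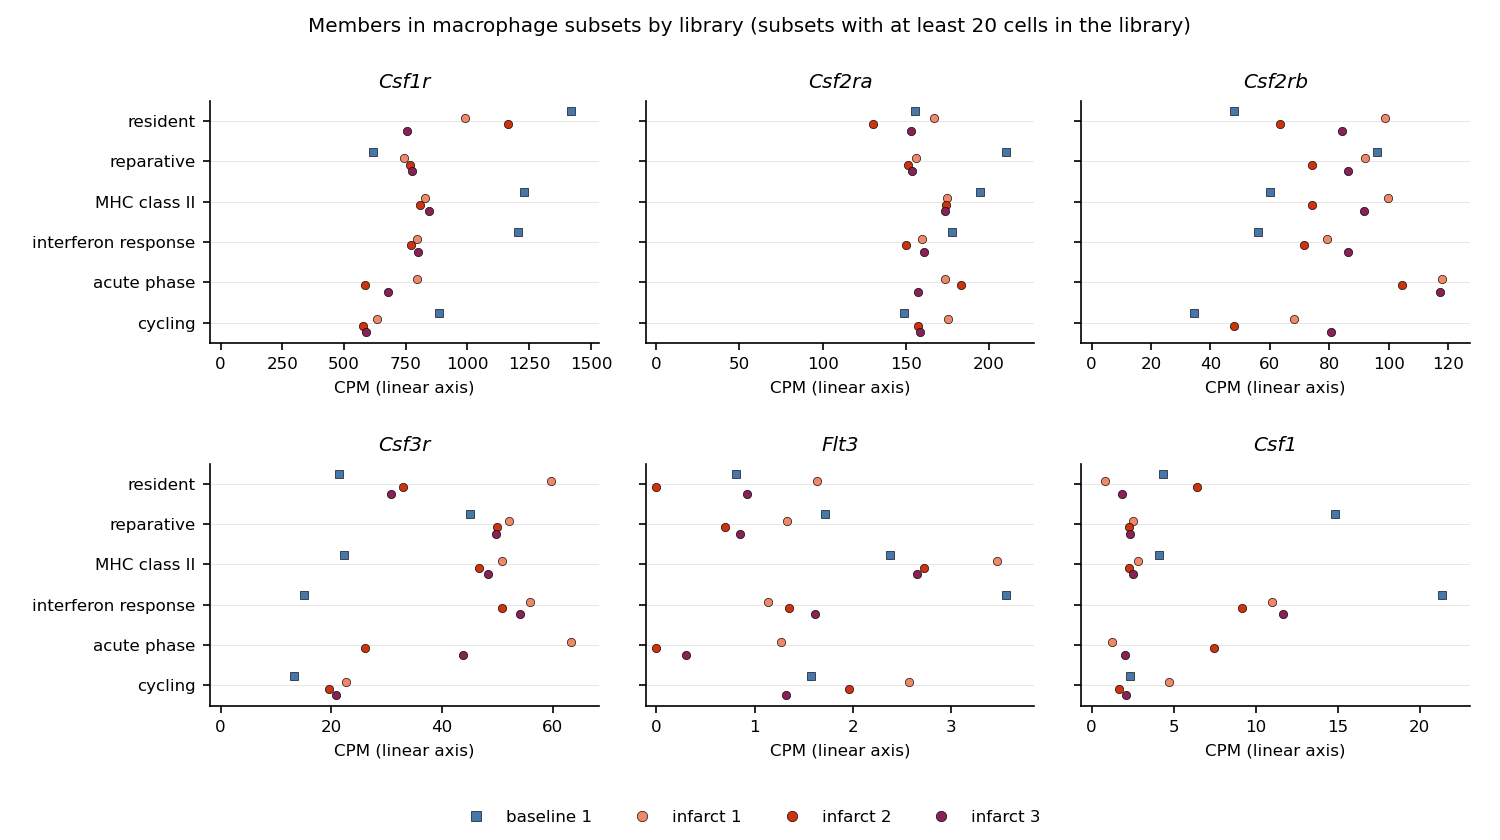
CPM of each member (x axis, linear, own range in each panel) in macrophage subsets (y axis), 1 point per library with at least 20 cells of the subset. Cycling macrophages have infarct Csf1r values of 577 to 633 CPM, reparative macrophages have infarct Csf1r values (742 to 774) above baseline (619), and the acute phase baseline of 11 cells is not drawn, and Csf1 is 9.15 to 11.7 CPM in infarct interferon response macrophages.

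Infarct and baseline were compared next, without a test because the baseline is 1 library. The summed level of the 7 macrophage markers in macrophages was 31719 CPM at baseline and 51808 to 67891 CPM in the infarct libraries, and the median log2 ratio of all genes of at least 10 CPM was -0.20, in all cells and in macrophages. Scaling by TMM, a trimmed mean of ratios, in place of totals moved every ratio up by 0.29, in all cells as in macrophages. Among all cells 29.4% of 7789 genes of at least 10 CPM had all 3 infarct libraries above baseline, 57.3% had all 3 below, and 1.73% were at least 2-fold higher in mean. Of the 4 members that reached that level, 2 had all 3 libraries above (Csf2rb and Csf3r) and 2 all below (Csf1r and Csf2ra). Flt3 and Csf1, under 10 CPM, were also below in all 3. In macrophages 29.1% of 7757 genes had all 3 infarct libraries above and 58.4% all below.

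Csf1r was lower in all infarct libraries, going from 1043 CPM at baseline (interval 1036 to 1051) to 737, 753 and 775 CPM, a log2 ratio of -0.47, which is -0.18 with TMM. Within macrophages the log2 ratio was -0.62 (-0.34 with TMM), and 20.7% of the 7757 genes compared there had a ratio as low or lower. All 3 infarct values lay below baseline also in MHC class II, interferon response, cycling and resident macrophages, with log2 ratios of the infarct mean of -0.55 to -0.61. Resident macrophages varied most among these, with ratios of -0.91 to -0.29 in single infarct libraries. Reparative macrophages went the other way, with 742 to 774 CPM in the infarct libraries against 619 CPM in 112 baseline cells (interval 582 to 657). These 112 cells had a median depth of 15623.5 UMIs, against 9886 to 10265 in the infarct libraries. Of them 18.75% had doublet scores among the highest, against 10.2% to 12.2%. Per cell the median was 8 Csf1r UMIs at baseline and 7, 7 and 8 in the infarct libraries. Acute phase macrophages also went the other way in CPM, with 584 to 798 CPM against 438 CPM, but from only 11 baseline cells (interval 343 to 551).

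Csf3r and Csf2rb were higher in all 3 infarct libraries, in all cells and in macrophages. In macrophages Csf3r was 2.25-fold higher, with 47.5 to 50.6 CPM against 21.6 CPM (interval 20.3 to 23.1), a log2 ratio of 1.17, or 1.46 with TMM. Of all genes, 1.69% had a ratio that high, and 2.4% were at least 2-fold higher in mean. The share of macrophages with a Csf3r UMI at 2000 UMIs was 9.15% ± 0.058 and 4.27%. B cells, which should lack the gene, stood at 4.65% of 43 cells in the infarct libraries together (interval 0.568 to 15.8%) and 2.90% of 69 cells at baseline (interval 0.353 to 10.1%). Both intervals cover the macrophage share of the same group, so these few B cells do not separate it from background. The median depth of the B cells before thinning was 3178 UMIs at baseline and 2598 to 8709 in the infarct libraries. Infarct B-gated cells also held macrophage markers at 6136 to 31079 CPM, whose part in their Csf3r share was not tested. Type 2 dendritic cells held less Csf3r than macrophages of the same group, at 3.31 to 5.13 CPM in the infarct libraries and 3.37 CPM at baseline (interval 1.24 to 7.34). In interferon response macrophages Csf3r stood at 50.9 to 56.0 CPM against 15.1 CPM in 132 baseline cells (interval 8.81 to 24.2), and in reparative macrophages at 49.9 to 52.1 CPM against 45.2 CPM (interval 35.8 to 56.3). In all cells the Csf3r difference was smaller, 47.3 to 50.6 CPM against 39.2 CPM, and classical monocytes (54.6 to 97.9 CPM against 102 CPM) and granulocytes were lower than at baseline.

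Csf2rb stood at 94.3, 72.5 and 88.5 CPM in infarct macrophages and 56.3 CPM at baseline (interval 54.1 to 58.6), a log2 ratio of 0.60 or 0.88 with TMM. Infarct classical monocytes (196 to 246 against 139 CPM), non-classical monocytes (120 to 166 against 93.8 CPM) and type 2 dendritic cells (155 to 190 against 138 CPM) were also above baseline in every library. Granulocytes (283 to 367 against 311 CPM) overlapped the baseline value. Among macrophage subsets, reparative macrophages were below baseline in every infarct library, at 74.1 to 91.9 CPM against 96.0 CPM in 112 cells (interval 82.1 to 112). Each of the other subsets was above baseline in every infarct library. For acute phase macrophages the baseline value rests on only 8 UMIs in 11 cells (48.0 CPM, interval 20.7 to 94.6). Csf2rb2, the paralog with uncertain counts, was also above baseline in all cells, with 25.1 to 30.8 CPM against 19.5 CPM.

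Csf2ra changed little, with 160 to 166 CPM in infarct macrophages and 182 CPM at baseline. Its log2 ratio of -0.17 was close to the median of all genes and turned to 0.12 with TMM. Csf1 in macrophages was 4.33 CPM at baseline (interval 3.73 to 5.01) and 2.45 to 2.50 CPM in the infarct libraries, a log2 ratio of -0.81, or -0.52 with TMM. In reparative macrophages it was 14.9 CPM at baseline, from 26 UMIs (interval 9.71 to 21.8), and 2.26 to 2.52 CPM in the infarct libraries. Flt3 in all cells was 5.86 to 9.90 CPM in the infarct libraries and 11.4 CPM at baseline, and in macrophages the infarct values (1.65 to 2.43 CPM) overlapped the baseline value of 1.89 CPM. Kitl, the ligand of the related receptor KIT, was lower in all infarct libraries, at 4.63 to 7.46 CPM against 55.1 CPM at baseline, and within infarct macrophages it was higher in the resident subset (1.74).

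**Figure D5:**
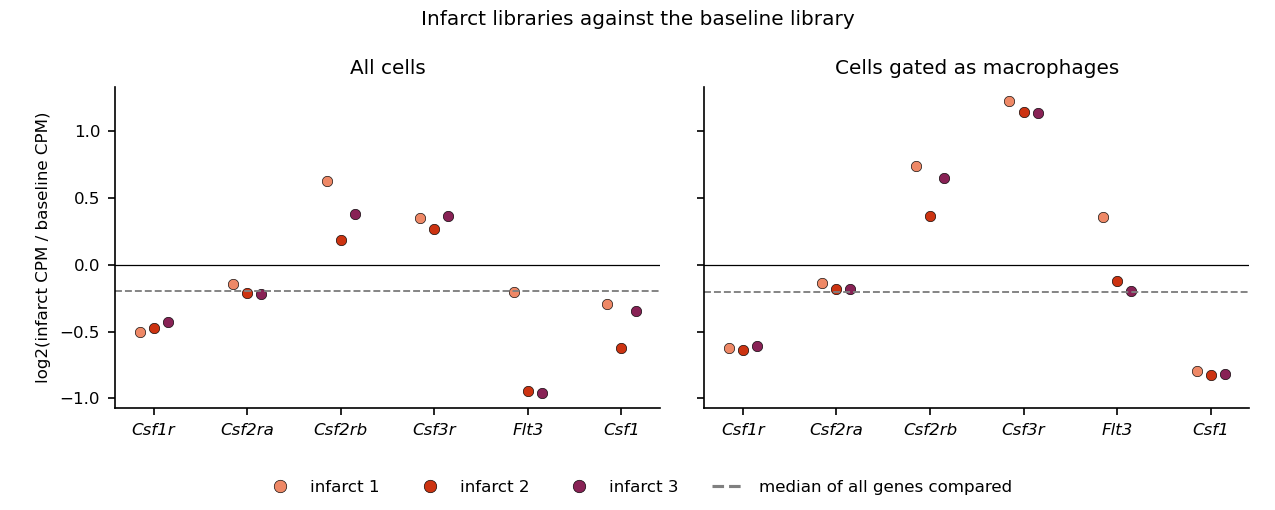
Log2 ratio of CPM in each infarct library over the baseline library (y axis) for each member (x axis), in all cells and in macrophages, with a dashed line at the median of all genes compared (-0.20). In macrophages Csf3r lies above 1 in all 3 libraries, Csf2rb above 0.36, Csf1r between -0.64 and -0.61, and Csf1 near -0.81.

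Transcription factors known to act at the Csf1r promoter or its intronic enhancer were read beside the receptor. Of 13 listed factors 12 were tested by lineage. In macrophages 5 were higher and 3 lower, where 13% and 15.1% of all genes were (median log2 fold 0.15, all genes 0.01), with Cebpa at 0.84, Mitf at 0.51, Runx1 at 0.34 and Irf8 at 0.31 among the higher and Cebpb at -0.50 among the lower. Spi1, which encodes the myeloid factor PU.1, was higher in classical monocytes (0.37), non-classical monocytes (0.61) and type 2 dendritic cells (0.34), and did not pass in macrophages (-0.10). In migratory dendritic cells, where Csf1r was lowest, 9 of 12 were lower and 1, Irf8 (1.82), was higher, where 11.2% of all genes were lower and 8.46% higher (median -2.27, all genes -0.46), with Cebpa at -3.70 and Cebpb at -4.80. In type 2 dendritic cells 2 were higher and 6 lower, where 16.6% and 18.2% of all genes were (median -1.02, all genes -0.09).

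Of 25 genes that carry signals below these receptors, 13 were higher and 3 lower in classical monocytes, where 13.7% and 15% of all genes were (median log2 fold 0.45, all genes -0.10). In non-classical monocytes 11 were higher and 0 lower, where 8.12% and 9.34% of all genes were (median 0.40, all genes -0.14). The latter included the Src kinases Fgr (2.29) and Lyn (0.72). In macrophages 2 were higher and 8 lower, where 13% and 15.1% of all genes were (median -0.15, all genes 0.01), with Gab2, an adaptor, at 0.70 and Inpp5d, a lipid phosphatase, at 0.41 as the higher ones. Jak2, the kinase bound by the shared beta chain, was lower in macrophages (-1.31) and higher in type 2 (2.34) and migratory dendritic cells (3.88) and granulocytes (1.95). Cish, a feedback inhibitor of STAT5, was higher in classical monocytes (1.37) and type 2 dendritic cells (1.14). Between infarct and baseline, 4 of 23 signalling genes of at least 10 CPM had all infarct libraries above and 15 all below, where 29.4% and 57.3% of all genes did (median -0.35, all genes -0.20). The share below is near that of all genes.

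The genes whose pattern over classes was most like that of each member were ranked by Pearson's r of log2(CPM + 10) over 28 sums of 10 classes, among 8111 genes. These sums share libraries and are a description. For Csf1r they were Lyz2 (r = 0.91), Clec4a1, Metrnl, Clec4a3 and Scp2. For Csf2ra they were Arpc2, Cdc42, Fcer1g, Arpc1b and Spi1 (r = 0.90 to 0.89). For Csf2rb they were Pim1 (r = 0.89), Selplg, Pik3r5, Stxbp2 and Relt. For Csf3r they were Tnfaip2 (r = 0.95), Fpr2, 2310001H17Rik, Trem1 and Adipor1. For Flt3 they were St8sia1 (r = 0.93), Dpp4, Klrk1, Rogdi and Adam23, and for Csf1 they were Rnf11 (r = 0.94), Nudt4, Igf1r, Fam122a and Amer2. Among members, Csf1r was unlike Flt3 (r = -0.62) and showed no likeness to Csf2rb (r = -0.03).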

How the data were processed

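The deposited files held raw UMI counts per gene and cell. According to the matrix headers the authors made these counts with Cell Ranger 3.1.0 (3.0.1 per the labels) on mm10, keeping barcodes called as cells. Everything else was computed here. A barcode was kept at 500 to 40000 UMIs with more than 200 genes seen. A cell entered a minor lineage with at least 4 markers of exactly 1 list and under 20 C1q UMIs per 10000, and was called a macrophage with at least 4 of 7 macrophage markers and at least 20. Subsets needed 4 markers, or 30 UMIs per 10000 of MHC class II genes. Between 4.51% and 9.19% of cells lay near the C1q limit. Members and lists were chosen with earlier results of these data known, and the gate rule after marker values were seen. All 6 members were named, as were list genes that passed in a class, ligands and partners, and the 5 genes most like each member.

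Counts were summed per infarct library over a class and over the remaining cells, and tested with edgeR 4.0.16 in R 4.3.3 (TMM, filterByExpr, quasi-likelihood, library block, Benjamini-Hochberg over all genes, threshold 0.01), in classes with at least 20 cells in each infarct library. A class and its remainder stem from 1 heart, so sums are paired by heart. Gate markers were left out of the counts of calls. CPM left out mitochondrial genes (3.07% to 4.75% of UMIs). Baseline CPM and shares carry exact Poisson or binomial 95% intervals, which cover counting error only. Cells were not used as replicates. Data were simulated with 100 genes changed 2-fold and 100 changed 4-fold. For classical monocytes (13088 genes) 67% and 98% were recovered, and for granulocytes (12784 genes) 31% and 95%, with 0 unchanged genes called. The simulated counts had the same dispersion for every gene and no differences between hearts, so these rates need not hold for the real sums. Scrublet's automatic threshold called 2.22% of baseline and at most 0.00988% of infarct cells, so doublets were removed only as an alternative, by the highest scores (8.10% to 8.63% of cells). Other alternatives were DESeq2 1.42.0 size factors and Wald test, keeping genes of low counts, dropping the block, leaving out each infarct library in turn, thinning, 1 marker more per gate, and at least 1000 UMIs. TMM scaling of macrophage sums was added after seeing the data. Gene positions came from GENCODE M21 (GRCm38). Scripts ran in Python 3.11.15 with scipy 1.17.1, scanpy 1.11.5 and matplotlib 3.10.9.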

Additional observations from a re-analysis of the deposited data

Results flagged for a closer look

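Csf2ra in reparative macrophages went 1 way at baseline and the other way in all 3 infarct libraries. At baseline it stood at 210 CPM (interval 189 to 233, 368 UMIs in 112 cells) against 181 CPM in the other macrophages, a log2 difference of 0.22. In the infarct libraries the log2 difference was -0.18 to -0.12. The difference between the groups was not tested, since the baseline is 1 library. The 112 baseline cells had a median depth of 15623.5 UMIs, and 18.75% of them had doublet scores among the highest.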

How the results depend on the processing

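Of the 24 lineage calls, 19 held under every alternative that could be run and none turned direction, and of the 10 subset calls 4 held throughout and none turned. The number of lineage calls stayed within 1.5 times under each setting. Without the replicate block, subset calls fell from 10 to 5, where the pairing of sums by heart is not used, and 3 of the lineage calls were lost. Leaving out 1 infarct library gave 21 to 23 lineage calls and 8 to 10 subset calls. In all cells, the members with every infarct library on 1 side of baseline numbered 6, but 5 when scaled by TMM and 4 when cells were averaged by CPM or thinned to 2000 UMIs. Csf1r infarct over baseline was -0.43 as a mean of each cell's CPM and -0.18 under TMM scaling in all cells. In macrophages it was -0.60 with mitochondrial genes kept, -0.59 as a mean of each cell's CPM, -0.60 at 2000 UMIs and -0.34 under TMM scaling, which was added for macrophages after seeing the data. TMM scaling reversed Csf2ra, to 0.10 in all cells and 0.12 in macrophages. Flt3 in macrophages, at 0.04, was -0.16 to 0.14 with 1 library left out, lowest without infarct replicate 1. The share of infarct cells with a Csf1r UMI, 73.1% at 2000 UMIs, was 49.98% at 1000, 89.4% at 4000 and 91.9% without thinning. Granulocytes and migratory dendritic cells, with 21 to 59 cells per infarct library, limit the precision of their values, and 2-fold changes were often missed in simulated granulocyte sums. With 1 marker more per gate, granulocytes could not be tested.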
